A study of Mus musculus with 8 samples.

Results

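The interferon receptors and Janus kinases examined here are 8 genes, chosen by symbol among the 54752 genes counted in each library. Ifnar1 and Ifnar2 encode the chains of the type I interferon receptor, and Ifngr1 and Ifngr2 encode the chains of the interferon gamma receptor. Jak1, Jak2, Jak3 and Tyk2 encode the 4 Janus kinases (JAKs). The right cerebral cortex of 8 wild-type male C57BL/6 mice, aged 14 weeks, was sequenced 3 weeks after surgery, with 1 mouse per library. Of these, 4 mice received bilateral carotid artery stenosis (BCAS), in which a microcoil narrows each common carotid artery and lowers cerebral blood flow. The narrower coil was on the right, the side of the sequenced cortex. The other 4 mice underwent the same operation without coils (Sham). All 8 members had enough counts to be tested, and the comparison asked how their mRNA differed between BCAS and Sham mice.

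Interferons act through paired receptor chains that have no enzyme activity of their own. Each chain holds a JAK on its inner part: TYK2 on IFNAR1, JAK1 on IFNAR2 and IFNGR1, and JAK2 on IFNGR2. When the ligand brings the chains together, the JAKs phosphorylate each other, the receptor and then the STAT transcription factors, which switch on interferon-regulated genes. JAK3 is not part of the interferon receptors, since it binds the common gamma chain shared by the receptors for several interleukins, interleukin-2 among them, and it is known mainly from blood-derived cells. In the brain, neurons, glia and vessels all carry type I interferon receptors, and microglia, the resident macrophages, respond strongly to interferon gamma.

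Total counts ranged from 16759364 to 21794435 per library. Expression is given as CPM, the counts of a gene divided by the library's total and scaled to parts per 1000000, after scaling by edgeR's TMM method, which corrects for differences in RNA composition. The quasi-likelihood test of edgeR was run on all 17136 genes with enough counts, with Benjamini-Hochberg adjustment, and a gene was called at an adjusted p under 0.05. The labelled tissue was checked by cell type markers, and the 10 neuronal markers together took 9940 to 11500 CPM in Sham mice and 4070 to 8550 CPM in BCAS mice. For 7 of the 8 members, BCAS mouse 1 was the highest and BCAS mouse 2 the lowest of the BCAS mice, so values without these mice are given where a result moves with them.

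In BCAS mice, 5 of the 8 members were higher and 0 were lower, against 19.2% of all tested genes called higher and 12.8% called lower. Jak3, Ifngr1 and Ifnar2 rose most, with log2 fold changes of 2.16, 2.05 and 1.78. Tyk2 and Ifngr2 rose less, by 0.87 and 0.55 on the log2 scale. In bulk cortex, more cells of a type and more RNA per cell cannot be told apart. Ifnar1, Jak2 and Jak1 did not pass the test, with log2 fold changes of 0.45, 0.35 and 0.02. The median log2 fold change of the members was 0.71, against -0.006 over all tested genes. With an absolute log2 fold change above 1 as a further condition, 3 members were called, against 11.0% of all tested genes. The same 5 members were higher in every BCAS mouse than in every Sham mouse, which held in this direction for 18.5% of all tested genes; 34.8% did not overlap in either direction. Leaving out 1 mouse moved the calls over all genes as well as those among the members. Without BCAS mouse 1, 5 members were higher and 4714 of 17372 genes were called in either direction, against 5490 of 17136 with all 8 mice. Without BCAS mouse 2, 7 members were higher and 8166 of 17567 genes were called. Without Sham mouse 1, Sham mouse 2, Sham mouse 4 or BCAS mouse 3, 4 members were higher, and 2549, 2723, 2731 and 2974 genes were called.

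**Figure D1:**
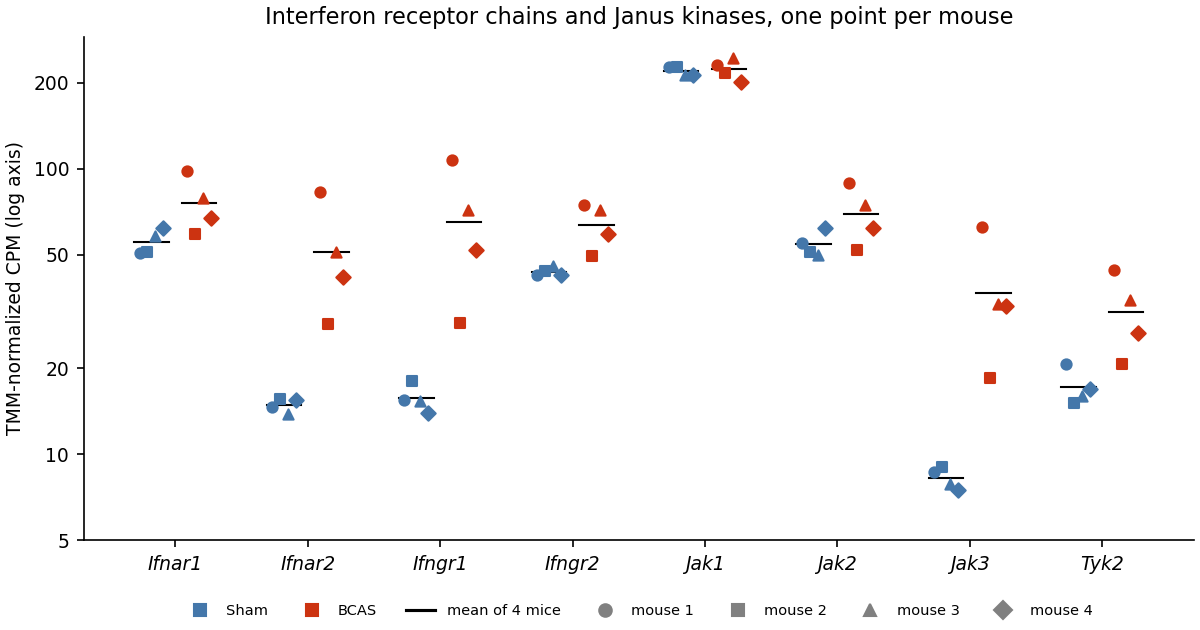
TMM-normalized CPM on a log axis for each member, with 1 point per mouse, Sham in blue and BCAS in red, and a black bar at the mean of 4 mice. Mouse numbers only name animals within a group. Jak3, Ifngr1 and Ifnar2 show the widest gaps between the groups, whereas the Jak1 points of both groups lie between 201.4 and 243.2 CPM.

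IFNAR1 and IFNAR2 bind type I interferons together, and IFNAR2 is the chain with the higher affinity for the ligand. Ifnar2 (ENSMUSG00000022971.18, mm10 chromosome 16, 91372783 to 91405589, + strand) had 14.6, 15.7, 13.8 and 15.5 CPM in Sham mice 1 to 4. In BCAS mice 1 to 4 it had 83.0, 28.5, 51.0 and 41.7 CPM. Every BCAS mouse was above every Sham mouse, and BCAS mouse 1 stood far above the other BCAS mice. The mean rose from 14.9 ± 0.872 CPM to 51.1 ± 23.2 CPM (SD, n = 4), a log2 fold change of 1.78 (standard error, SE, 0.28, edgeR adjusted p = 0.00408). The log2 fold change was 1.45 without BCAS mouse 1 and 1.99 without BCAS mouse 2. The Ifnar2 gene makes both a membrane-bound and a soluble protein, which counts per gene cannot separate. It shares 9.46% of its exon bases with Gm21970 on the same strand, a gene that had no count in any library.

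Ifnar1 (ENSMUSG00000022967.13, mm10 chromosome 16, 91485238 to 91507441, + strand) behaved differently from its partner. Expression was 50.8, 51.1, 58.2 and 62.0 CPM in Sham mice and 98.1, 58.9, 78.6 and 67.0 CPM in BCAS mice 1 to 4. BCAS mouse 2 lay within the Sham range, while the other 3 BCAS mice lay above it. The log2 fold change was 0.45 (SE 0.15, 95% interval 0.10 to 0.79), just short of the threshold (edgeR adjusted p = 0.0526). Without BCAS mouse 2, Ifnar1 passed, with a log2 fold change of 0.56 (edgeR adjusted p = 0.00936), and DESeq2 called it on all 8 mice (adjusted p = 0.0326). It did not pass in 13 of 17 alternatives, among them those without BCAS mouse 1 (0.31, edgeR adjusted p = 0.0862) and without Sham mouse 1 (0.40, edgeR adjusted p = 0.131).

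The receptor for interferon gamma showed the same kind of contrast. Ifngr1, the ligand-binding chain (ENSMUSG00000020009.13, mm10 chromosome 10, 19591949 to 19610229, + strand), had 15.5, 18.1, 15.4 and 13.9 CPM in Sham mice. In BCAS mice 1 to 4 the values were 107.0, 28.9, 71.7 and 52.1 CPM. The groups did not overlap, and Ifngr1 had the largest spread of the members in BCAS mice, with a coefficient of variation of 51% against 11% in Sham mice. Its mean rose from 15.7 ± 1.73 to 64.9 ± 33.1 CPM (SD, n = 4), a log2 fold change of 2.05 (SE 0.34, edgeR adjusted p = 0.00476). The log2 fold change was 1.71 without BCAS mouse 1 and 2.30 without BCAS mouse 2.

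Ifngr2, the accessory chain that carries JAK2 (ENSMUSG00000022965.8, mm10 chromosome 16, 91547072 to 91565623, + strand), was the steadiest receptor chain in Sham mice, at 42.5, 43.7, 45.6 and 42.5 CPM. It reached 74.3, 49.4, 71.9 and 58.9 CPM in BCAS mice 1 to 4. All BCAS values were above all Sham values, although BCAS mouse 2 was only slightly higher. The log2 fold change was 0.55 (SE 0.13, edgeR adjusted p = 0.0153), and the call was lost without Sham mouse 1 (log2 fold change 0.53, edgeR adjusted p = 0.0501). The log2 fold change was 0.47 without BCAS mouse 1 and 0.66 without BCAS mouse 2.

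**Figure D2:**
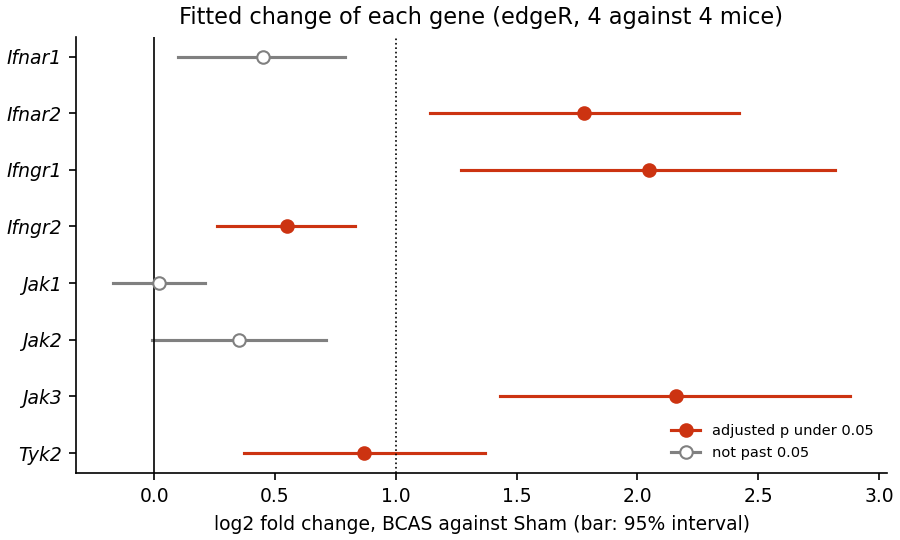
Log2 fold change of each member between 4 BCAS and 4 Sham mice from edgeR, with the 95% interval as a bar, and a dotted line at 1. Filled red points passed an adjusted p of 0.05. The intervals of Ifnar2, Ifngr1 and Jak3 lie wholly above 1, and that of Jak1 spans 0, from -0.17 to 0.21.

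Among the kinases, Jak3 had the largest change of all members. Jak3 (ENSMUSG00000031805.17, mm10 chromosome 8, 71676296 to 71690575, + strand) had 152, 145, 138 and 124 counts in Sham mice, which is 8.64, 9.05, 7.89 and 7.48 CPM. In BCAS mice 1 to 4 it had 1420, 360, 619 and 604 counts, or 62.4, 18.5, 33.4 and 32.9 CPM. The lowest BCAS mouse was at 2.24 times the Sham mean and the highest at 7.55 times. The log2 fold change was 2.16 (SE 0.32, edgeR adjusted p = 0.00318). It was 1.79 without BCAS mouse 1 and 2.39 without BCAS mouse 2. Insl3 covers 7.55% of the Jak3 exon bases on the same strand, and it had at most 36 counts in any library.

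Tyk2, the kinase held by IFNAR1 (ENSMUSG00000032175.11, mm10 chromosome 9, 21104068 to 21131243, - strand), had 20.6, 15.2, 16.02 and 17.0 CPM in Sham mice and 44.1, 20.7, 34.7 and 26.6 CPM in BCAS mice 1 to 4. The groups were separated by a narrow margin, since BCAS mouse 2 (20.66 CPM) barely exceeded Sham mouse 1 (20.63 CPM). The log2 fold change was 0.87 (SE 0.22, edgeR adjusted p = 0.0203). It moved to 0.68 without BCAS mouse 1 (edgeR adjusted p = 0.0224) and to 1.04 without BCAS mouse 2 (edgeR adjusted p = 0.00165). With BCAS mouse 3, Sham mouse 2 or Sham mouse 4 left out, the log2 fold change was much the same, at 0.83, 0.81 and 0.86, but the call was lost, with edgeR adjusted p-values of 0.0551, 0.0621 and 0.0569. An opposite-strand gene, 1700084C06Rik, covers 8.07% of the Tyk2 exon bases and had at most 1 count in any library.

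Jak2, which serves IFNGR2 and many growth factor and hormone receptors (ENSMUSG00000024789.12, mm10 chromosome 19, 29251828 to 29313080, + strand), had 54.95, 51.0, 49.7 and 61.97 CPM in Sham mice and 88.8, 51.8, 74.4 and 61.95 CPM in BCAS mice 1 to 4. BCAS mice 2 and 4 fell within the Sham range, and BCAS mice 1 and 3 lay above it. The log2 fold change of 0.35 (SE 0.16, 95% interval -0.01 to 0.71) did not pass the test (edgeR adjusted p = 0.118), and it moved with single mice, to 0.22 without BCAS mouse 1 (edgeR adjusted p = 0.246) and to 0.48 without BCAS mouse 2 (edgeR adjusted p = 0.0147).

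Jak1, the kinase that IFNAR2, IFNGR1 and many other cytokine receptors rely on (ENSMUSG00000028530.14, mm10 chromosome 4, 101152367 to 101265282, - strand), had the highest mean per length in both groups. In BCAS mouse 1, however, Ifngr1 was above it, at 37.58 against 31.84 CPM per kb of exon. Jak1 was the least variable of the 8 in BCAS mice. It had 226.5, 226.4, 213.5 and 212.9 CPM in Sham mice and 230.1, 216.6, 243.2 and 201.4 CPM in BCAS mice 1 to 4. The groups overlapped fully, with the highest and the lowest value both in BCAS mice. Its log2 fold change was 0.02 (SE 0.09, 95% interval -0.17 to 0.21, edgeR adjusted p = 0.872). With the library size alone in place of TMM it was 0.11, and leaving out 1 mouse moved it between -0.02 and 0.07.

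Markers of several cell types differed between the same groups. The summed level of 10 microglial markers was 385 to 462 CPM in Sham mice and 1500 to 5470 CPM in BCAS mice, with all 10 called higher. Relative to the Sham mean this sum was 12.8, 3.52, 6.29 and 6.84 in BCAS mice 1 to 4, against 7.55, 2.24, 4.05 and 3.98 for Jak3, 6.81, 1.83, 4.56 and 3.31 for Ifngr1 and 5.57, 1.92, 3.43 and 2.80 for Ifnar2. The 12 blood leukocyte markers summed to 1.21 to 2.12 CPM in Sham mice and to 123.0, 5.72, 76.5 and 20.5 CPM in BCAS mice 1 to 4. Of these, 4 had enough counts to be tested, through their BCAS counts, so their calls were largely fixed by the filter and are not read here. The 6 fibroblast markers summed to 120 to 151 CPM in Sham mice and 231 to 989 CPM in BCAS mice, with all 6 called higher. Relative to the Sham mean, the fibroblast sum was 7.22, 1.69, 7.1 and 3.27 in BCAS mice 1 to 4. The blood leukocyte sum was 70.47, 3.28, 43.87 and 11.75 on the same scale. The 7 astrocyte markers summed to 4630 to 5350 and 6160 to 9240 CPM, with 5 called higher. Much of this rise was Gfap, at means of 155.5 CPM in Sham and 2320 CPM in BCAS mice. Slc1a2, at 3533 and 3581 CPM, and S1pr1 were not called, with log2 fold changes of 0.02 and 0.13. Of the 10 neuronal markers 7 were lower. Oligodendrocyte and endothelial sums overlapped between the groups, at 3620 to 5870 and 5100 to 8030 CPM and at 276 to 364 and 342 to 497 CPM, with 0 of 6 and 2 of 7 markers called higher. Of all tested genes, 19.2% were called higher and 12.8% lower. No marker had 3 counts or fewer in every library. The part of these markers in the changes of the members was not tested.

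Levels of different genes were compared per length, as CPM divided by the exon length in kilobases. In Sham mice, Jak1 stood apart at 30.4 ± 1.06 CPM per kb (SD, n = 4). Ifngr2 (11.6 ± 0.392), Jak2 (10.8 ± 1.09) and Ifnar1 (9.35 ± 0.926) followed, and the ranges of neighbours among these 3 overlapped. Ifngr1 (5.52 ± 0.608), Ifnar2 (4.47 ± 0.262), Tyk2 (2.50 ± 0.350) and Jak3 (1.54 ± 0.132) came below, with no overlap between neighbours in this order. In BCAS mice every neighbouring pair overlapped in range, and the order of the means was Jak1, Ifngr1, Ifngr2, Ifnar2, Jak2, Ifnar1, Jak3 and Tyk2. Jak3, Ifnar2 and Ifngr1, the members with the largest changes, were among the 4 lowest per length in Sham mice.

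Seen as a pool, the 4 receptor chains summed to 29.6 to 31.4 CPM per kb in Sham mice and to 98.8, 41.7, 72.8 and 57.7 CPM per kb in BCAS mice 1 to 4. Ifngr2 was the largest part in Sham mice, at 37.4% ± 1.06, and Ifngr1 had the largest mean share in BCAS mice, at 32.1% ± 5.86 (SD, n = 4), although in BCAS mouse 2 Ifngr2 (31.4%) was above Ifngr1 (24.3%). The 4 kinases summed to 43.2 to 46.9 CPM per kb in Sham mice and to 67.6, 46.8, 59.7 and 50.2 CPM per kb in BCAS mice 1 to 4. Jak3 made up 3.06% to 3.73% of this pool in Sham mice. Its share was 17.3%, 7.41%, 10.5% and 12.2% in BCAS mice 1 to 4. Jak1 made up 64.5% to 69.0% of the kinase pool in Sham mice and 47.1% to 64.1% in BCAS mice, where the smallest share was that of BCAS mouse 1. The Jak2 share overlapped between the groups, at 22.4% to 27.0% in Sham mice and a mean of 24.4% ± 1.7 (SD, n = 4) in BCAS mice.

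**Figure D3:**
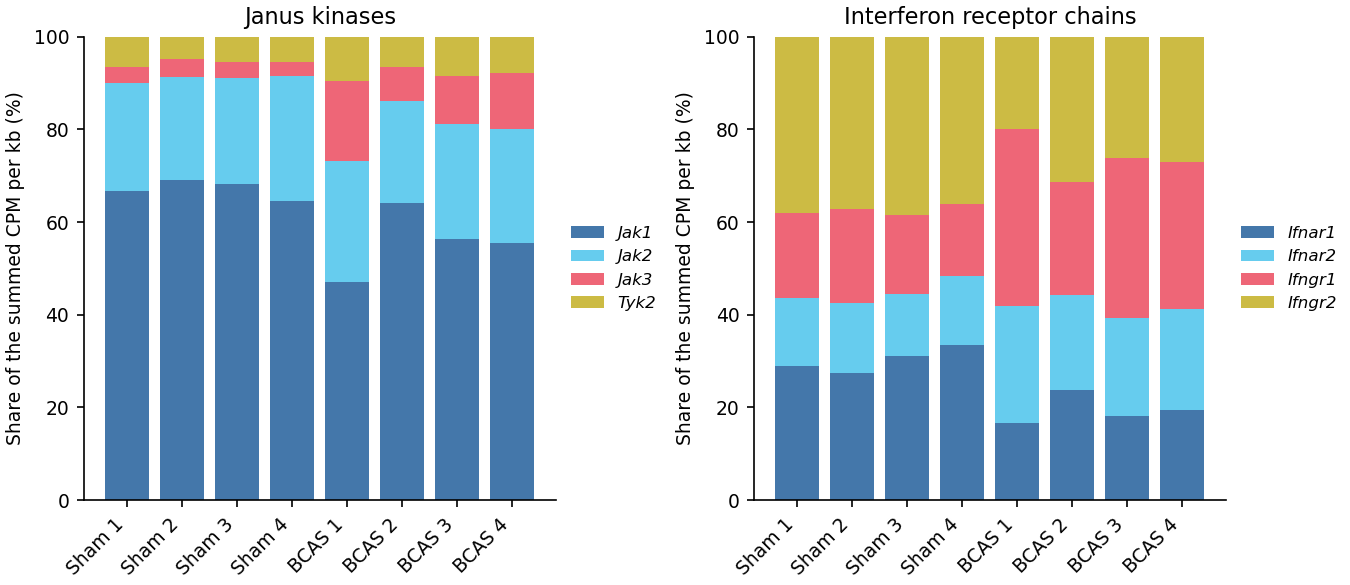
Share of each gene in the summed CPM per kb of the 4 Janus kinases (left) and the 4 receptor chains (right), with 1 stacked bar per mouse. Jak3 takes at most 3.73% of the kinase pool in Sham mice and at least 7.41% in BCAS mice, and Ifngr1 and Ifnar2 take larger parts of the receptor pool in BCAS mice.

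The unequal changes were tested within each library, where no scaling is needed, as the log2 ratio of counts per kb of a pair of members. Of 8 ratios compared between groups by an exact two-sided permutation test, 7 reached the smallest p that 4 against 4 mice allow, 0.0286, or 0.0327 after Benjamini-Hochberg adjustment over the 8. The kinase ratios are all the pairs of the same 4 genes, so they are not independent of each other. How often other gene pairs reach this p was not tested. Ifnar2 stood at 0.42 to 0.55 of Ifnar1 in Sham mice and at 1.51, 0.87, 1.16 and 1.11 of it in BCAS mice 1 to 4, so that the ratio rose by 1.25 on the log2 scale (exact permutation test, p = 0.0286). Ifngr1 stood at 0.43 to 0.55 of Ifngr2 in Sham mice and at 1.9, 0.77, 1.32 and 1.17 of it in BCAS mice (log2 difference 1.37, exact permutation test, p = 0.0286). In both receptors, the chain that was scarcer in Sham mice was thus at or above its partner in 3 of the 4 BCAS mice.

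The kinases were also unequal. The log2 ratio rose by 2.01 for Jak3 to Jak1, by 1.70 for Jak3 to Jak2 and by 1.2 for Jak3 to Tyk2 (exact permutation tests, each p = 0.0286). Jak3 was below Tyk2 per length in every Sham mouse, at 0.54 to 0.77 of it, and above Tyk2 in every BCAS mouse, at 1.15 to 1.82 times. The ratio of Jak1 to Tyk2 fell by 0.81 and that of Jak2 to Tyk2 by 0.50 on the log2 scale (exact permutation tests, each p = 0.0286). Among the 8 ratios, only that of Jak1 to Jak2 overlapped between the groups, with a difference of -0.31 (exact permutation test, p = 0.0857). With 1 mouse left out the differences kept their direction, but the exact p became 0.0571 for Ifngr1 to Ifngr2 and for Jak1 to Tyk2 when any 1 Sham mouse was left out, with differences of 1.32 to 1.43 and -0.88 to -0.74, and for Jak2 to Tyk2 when any 1 BCAS mouse was left out, with differences of -0.56 to -0.45.

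**Figure D4:**
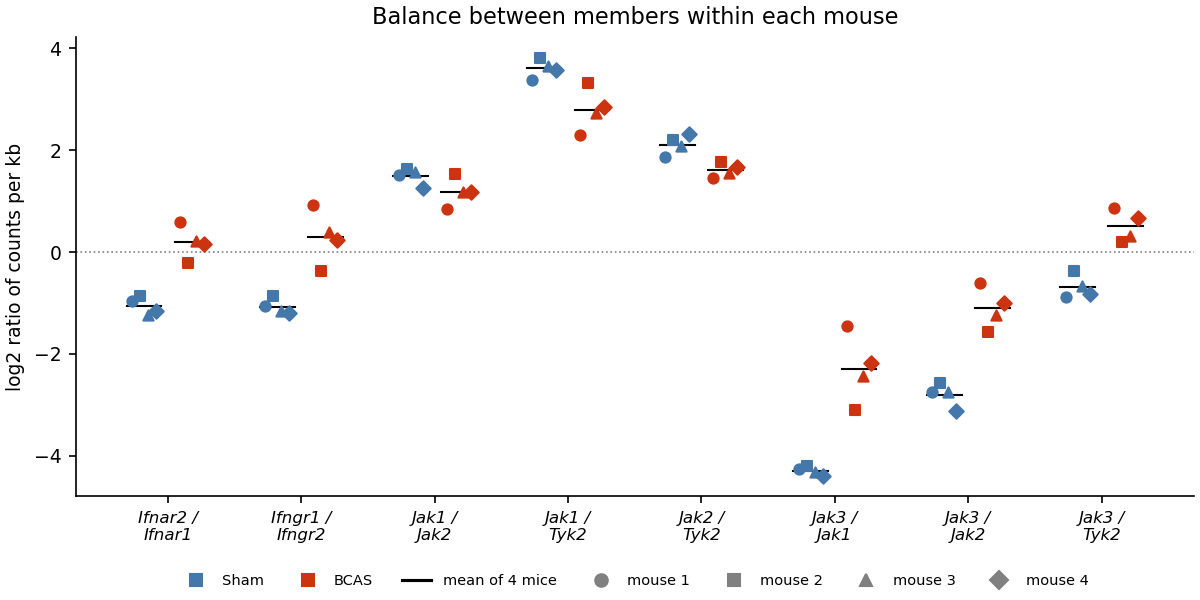
Log2 ratio of counts per kb for 8 pairs of members, with 1 point per mouse, Sham in blue and BCAS in red, and a black bar at the mean of 4 mice. Both receptor ratios move from means of -1.06 and -1.07 in Sham mice to 0.19 and 0.30 in BCAS mice, and Jak1 to Jak2 is the only pair whose groups overlap.

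Ifnar2, Ifnar1 and Ifngr2 lie in the same orientation within 192.8 kb of chromosome 16. This stretch holds 12 annotated genes, of which 5 were tested. The fourth receptor gene there, Il10rb, encodes a chain shared by the interleukin-10 and interferon lambda receptors and lies between Ifnar2 and Ifnar1. Il10rb had 6.53, 6.05, 4.92 and 5.79 CPM in Sham mice and 51.8, 13.4, 34.0 and 23.2 CPM in BCAS mice 1 to 4, a log2 fold change of 2.39 (SE 0.37, edgeR adjusted p = 0.00361). Adjacent receptor genes in this stretch thus had log2 fold changes of 1.78 (Ifnar2), 2.39 (Il10rb), 0.45 (Ifnar1) and 0.55 (Ifngr2). A930006K02Rik, which lies between Il10rb and Ifnar1, had a log2 fold change of 0.93 and did not pass the test (edgeR adjusted p = 0.0817).

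Because several members moved in the same direction, the 250 bases before the RefSeq start of each gene were searched for sites at which interferon-activated factors can bind. The sequences are those of RefSeq on GRCm38.p6, the assembly also named mm10, and all 8 members matched. RefSeq starts can differ from the gene starts given above. The Ifngr2 window ends at 91547058, before the gene start at 91547072, and the Jak3 window ends at 71676382, past the gene start at 71676296. The letters searched on both strands were TTCNNNGAA, the gamma-activated sequence, TTC and GAA with 4 bases of any kind between them, a STAT site with a wider spacer, GAAA and GAAA with 2 bases of any kind between them, the core of the interferon-stimulated response element, and GAGGAAGT, a core site of the myeloid factor PU.1. The windows of Ifnar2 and Ifngr2 held a match and those of their receptor partners, Ifnar1 and Ifngr1, held none, so the windows of the 4 receptor chains are shown, with the matched bases in capitals.
Ifnar1, chr16:91484965-91485214, + strand: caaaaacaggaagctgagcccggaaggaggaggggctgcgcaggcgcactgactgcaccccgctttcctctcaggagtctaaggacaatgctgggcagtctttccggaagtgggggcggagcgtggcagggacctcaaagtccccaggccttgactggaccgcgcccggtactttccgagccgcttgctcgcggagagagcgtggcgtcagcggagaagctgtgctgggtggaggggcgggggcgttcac
Ifnar2, chr16:91372533-91372782, + strand: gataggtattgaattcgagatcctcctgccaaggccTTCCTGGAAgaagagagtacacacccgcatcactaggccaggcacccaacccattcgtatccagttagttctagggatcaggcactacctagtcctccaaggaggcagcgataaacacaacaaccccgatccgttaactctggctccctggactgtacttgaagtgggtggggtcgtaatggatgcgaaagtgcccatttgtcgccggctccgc
Ifngr1, chr10:19591699-19591948, + strand: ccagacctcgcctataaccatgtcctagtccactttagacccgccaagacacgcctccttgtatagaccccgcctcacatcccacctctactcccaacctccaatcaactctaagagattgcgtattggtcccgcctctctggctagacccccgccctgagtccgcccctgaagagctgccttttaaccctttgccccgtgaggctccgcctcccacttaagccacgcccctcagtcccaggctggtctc
Ifngr2, chr16:91546809-91547058, + strand: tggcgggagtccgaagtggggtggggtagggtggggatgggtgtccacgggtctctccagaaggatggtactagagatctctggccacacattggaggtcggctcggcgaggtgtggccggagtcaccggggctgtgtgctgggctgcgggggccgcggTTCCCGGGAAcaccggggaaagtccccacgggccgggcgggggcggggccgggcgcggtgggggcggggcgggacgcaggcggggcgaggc
In Ifnar2 the match TTCCTGGAA begins 214 bases before the start, and 7.02% of 32851 promoter windows of this length hold the same motif. In Ifngr2 the match TTCCCGGGAA begins 91 bases before the start, and 5.85% of windows hold that motif. The response element and the PU.1 core were in 2.98% and 2.44% of windows and in 0 of the 8 members. A match is only a run of letters, and the absence of one concerns only these letters in this window. The GC content of the window was 65.6% in Ifnar1, 54% in Ifnar2, 59.2% in Ifngr1 and 74% in Ifngr2. For the kinases it was 61.2% in Jak1, 80.8% in Jak2, 52.4% in Jak3 and 57.2% in Tyk2. Over all windows the median was 52.4%, with quartiles of 45.2% and 61.2%.

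The ligands of these receptors were hardly seen in the cortex. Of 21 interferon genes (alpha, beta, gamma, epsilon, kappa, zeta and lambda), 0 had enough counts to be tested and 18, Ifnb1 among them, had no count in any of the 8 libraries. A count of 0 allows up to 0.179 CPM in the smallest library, the value of 3 counts over that library's total, before TMM scaling. This bound takes in counting error alone. The alpha genes are close copies of each other, and reads that match several copies were not counted. Ifng, the ligand of IFNGR1 and IFNGR2, had 0, 1, 0 and 0 counts in Sham mice and 3, 1, 4 and 0 counts in BCAS mice 1 to 4. Ifnk had 1 count in 1 Sham library and 4 counts in BCAS mouse 3, and Ifnz had 1 count in BCAS mouse 3.

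Other receptors of the same structural family, the type II cytokine receptors, were examined from a list of 8, of which 5 were tested and 3 rose, against 19.2% of all tested genes. Besides Il10rb, these were Il10ra, the ligand-binding chain for interleukin-10, with a log2 fold change of 3.22 (edgeR adjusted p = 0.00252), and F3, the tissue factor that starts coagulation, with 0.74 (edgeR adjusted p = 0.0163). Ifnlr1, the interferon lambda chain, had 0, 3, 13 and 3 counts in Sham mice and 15, 5, 22 and 12 counts in BCAS mice 1 to 4. It thus entered the test chiefly through its BCAS counts. Its log2 fold change of 1.28 did not pass (edgeR adjusted p = 0.225), and Il20rb had 0.46 (edgeR adjusted p = 0.62).

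Downstream of the kinases, Irf9, a DNA-binding partner of STAT2, rose from 8.28 ± 0.632 to 39.2 ± 18.7 CPM (SD, n = 4), a log2 fold change of 2.24 (edgeR adjusted p = 0.00280). Stat2, Stat3, Stat5a, Stat5b and Stat6 rose too, with log2 fold changes of 1.15, 1.15, 1.9, 0.45 and 1.67, and Stat4 did not pass, with 0.81 (edgeR adjusted p = 0.414).

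Of 15 inhibitors of the receptors and kinases, 7 rose, 0 fell and 8 did not pass, with a median log2 fold change of 0.06, against 19.2% higher, 12.8% lower and a median of -0.006 over all tested genes. Among those that rose were Usp18, which binds IFNAR2 and blocks its kinase, with a log2 fold change of 3.69 (edgeR adjusted p = 0.00146), and Socs1 and Socs3, direct inhibitors of JAKs, with 1.04 and 1.9. The phosphatase genes Ptprc and Ptpn6, both typical of blood-derived cells and microglia, had 4.30 and 4.06. Ptpn1, which acts on JAK2 and TYK2, had 0.83 (edgeR adjusted p = 0.0192), and Sh2b3, an adaptor that restrains JAK2, had 0.77 (edgeR adjusted p = 0.0239). Ptpn2, Ptpn11, Cish, Socs2 and the 4 Pias genes had log2 fold changes between -0.20 and 0.06 and did not pass, Pias4 being nearest to 0 (edgeR adjusted p = 0.984).

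Of 8 receptor genes that use JAK3, 6 had enough counts. Il2rg, Il2rb and Il7r, scarce in Sham mice, entered through their BCAS counts, so no count of calls or median is given for the list and the values of these 3 are a description. Il2rg, the common gamma chain to which JAK3 binds, had 5, 10, 11 and 6 counts in Sham mice and 408, 47, 200 and 123 counts in BCAS mice 1 to 4, a fitted log2 fold change of 4.30 that is given with no test. BCAS mouse 2 was the lowest here too, but well above every Sham mouse. Il2rb and Il7r had fitted log2 fold changes of 4.42 and 2.80. Among the receptors with more counts in Sham mice, Il21r rose by 3.59 (edgeR adjusted p = 0.0028), Il4ra by 2.62 (edgeR adjusted p = 0.00373) and Il15ra by 0.52 (edgeR adjusted p = 0.0349) on the log2 scale. Il2ra and Il9r did not pass the filter.

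Of 9 receptors that signal chiefly through JAK2, 8 were tested, 4 rose and 1 fell, against 19.2% and 12.8% of all tested genes. The beta-common chain Csf2rb and its close copy Csf2rb2, between which reads may be split, had log2 fold changes of 4.36 and 4.57 (edgeR adjusted p = 0.00254 for each), Il3ra had 2.73 and Csf2ra 1.6. Epor, the erythropoietin receptor, fell by 0.75 on the log2 scale (edgeR adjusted p = 0.0456). Ghr, the growth hormone receptor, had 0.15 (edgeR adjusted p = 0.49). Of 12 receptors of the gp130 and interleukin-12 families, which use JAK1, JAK2 and TYK2, 11 were tested; Il27ra entered through its BCAS counts, so no count of calls is given. Csf3r had a log2 fold change of 4.07 (edgeR adjusted p = 0.00146). The shared chain Il6st rose by 1.22 and Osmr by 3.08, whereas Cntfr had -0.10 and did not pass (edgeR adjusted p = 0.435).

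**Figure D5:**
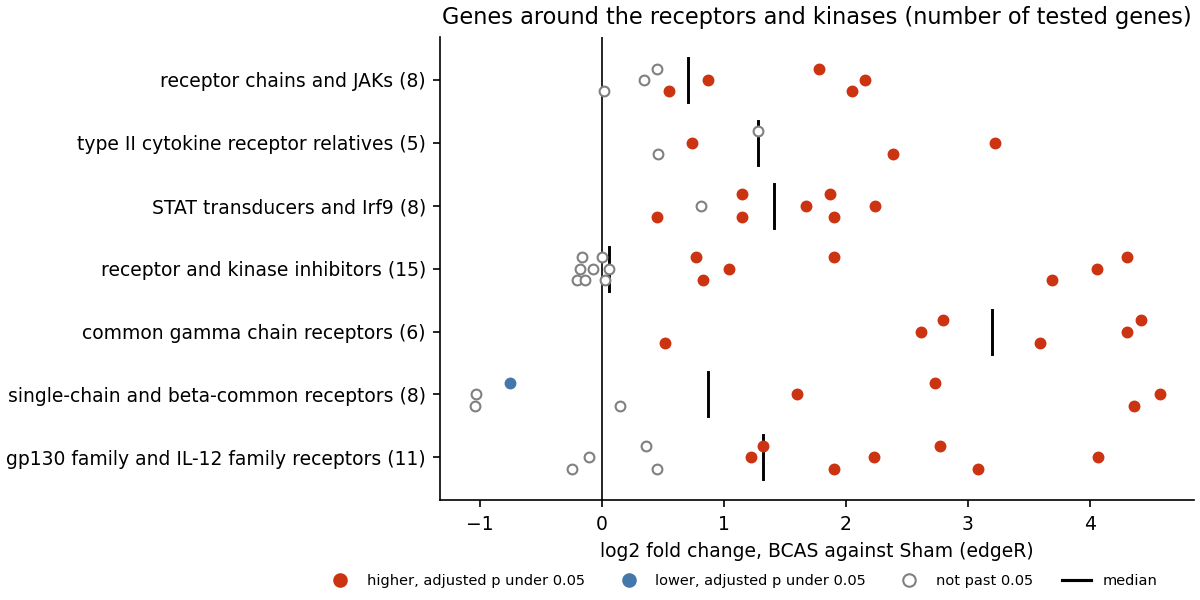
Log2 fold change of each tested gene in the members and 6 lists around them, with filled points past an adjusted p of 0.05 (red higher, blue lower in BCAS), open points not past it, and a black line at the list median. The inhibitors lie around a median of 0.06. Some genes scarce in Sham mice, such as Il2rg, Il2rb, Il7r and Il27ra, passed the filter through their BCAS counts, so medians are not compared between lists.

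The genes with profiles most like each member were taken from the 12435 tested genes that averaged 100 counts or more, by the root-mean-square difference of log2 CPM over the 8 mice, each gene set relative to its Sham mean. For Jak3 these were Ctsa and Man2b2 (0.063 and 0.071) and for Ifngr1 Creg1 and Irgm1 (0.084 and 0.094). For the others given here they were Washc4 and Twf1 for Ifnar1, Rarg and Pepd for Ifngr2, Dnajc14 and Sgpp1 for Jak1, Ints12 and Vasn for Jak2, and Ralb and Cast for Tyk2. No member was among the 2 genes nearest to another member. The nearest member had rank 32 for Ifngr1 (Jak3), 34 for Jak3 (Ifngr1), 81 for Jak2 (Ifnar1) and 103 for Ifnar1 (Jak2). Its rank was 280 for Ifngr2 (Ifnar1), 759 for Tyk2 (Ifngr2) and 6288 for Jak1 (Jak2). Between members, the smallest difference was that of Ifnar1 and Jak2, at 0.116, and that of Ifngr1 and Jak3 was 0.163.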

How the data were processed

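RNA-seq libraries of the right cerebral cortex of 4 Sham and 4 BCAS mice were analysed, 1 mouse per library. The authors trimmed the reads with Trim Galore, aligned them to mm10 with HISAT2, sorted them with SAMtools 1.9, counted read pairs on exons, and deposited raw counts per gene without normalization. The file headers name featureCounts 2.0.1 and GENCODE vM20 with no option for strand, overlapping genes or multiple matches, whereas the methods name version 1.6.3. Symbols matched 54723 of the 54752 gene IDs by their unversioned ID. Coordinates and exon lengths are those of the deposited tables.

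Counts were tested with edgeR 4.0.16 in R 4.3.3 (TMM, filterByExpr with a minimum count of 10 and a minimum total of 15, quasi-likelihood test without covariates), with Benjamini-Hochberg adjustment over 17136 genes. The standard error is the log2 fold change over the root of its F-statistic. Ratios of members used a pseudocount of 0.5 counts and exact permutation tests over 70 arrangements. Alternatives were DESeq2 1.42.0, limma 3.58.1, other scalings and filters, a replicate block, and leaving out each mouse. Replicate numbers did not pair the samples. The members and lists were chosen with earlier results of these data known. Named genes are all members, genes chosen among those called in each list, those with its smallest and largest p, and the 2 nearest profiles per member. Ifnlr1, A930006K02Rik, Il2ra, Il9r, the interferon genes and the inhibitors that did not pass were named after their values were seen. A few results that the rule would name are not reported here, among them the nearest profiles of Ifnar2. Python 3.11.15 and matplotlib 3.10.9 were used for tables and plots.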

Additional observations from a re-analysis of the deposited data

How the results depend on the processing

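Each member's log2 fold change was recomputed under 17 alternatives, 8 of which left out 1 mouse. Ifnar2, Ifngr1 and Jak3 kept their direction and stayed past the threshold in all 17, with log2 fold changes of 1.45 to 1.99, 1.71 to 2.30 and 1.79 to 2.39 when 1 mouse was left out. Jak2 passed only without BCAS mouse 2, and Jak1 passed in none. Leaving out 1 mouse gave 4 to 7 higher members and 0 lower ones, while the calls over all genes ranged from 2549 (without Sham mouse 1) to 8166 (without BCAS mouse 2). It moved Jak1 between -0.02 and 0.07, so that its sign was not fixed. Requiring an absolute log2 fold change above 1 gave 3 higher members. Ifnar1, short of the threshold on all 8 mice (edgeR adjusted p = 0.0526), passed with the library size alone (0.54, adjusted p = 0.0364), with at least 10 counts in every library (0.47, adjusted p = 0.0484) and with DESeq2 (0.45, adjusted p = 0.0326), but not with limma-voom (adjusted p = 0.0645). The library size alone moved the median of all genes to 0.083.

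Samples with the same replicate number did not deviate together (correlations of -0.0455, -0.103, -0.00821 and 0.00126 for numbers 1 to 4, across genes), so the numbers only name samples. With the replicate number as a block, 5 members were higher and 0 lower, and 3546 in place of 5490 genes were called. For ratios, 4 pairs cannot give an exact p under 0.125, so none passed under the block, where the differences were 1.25 (Ifnar2 to Ifnar1), 1.37 (Ifngr1 to Ifngr2), -0.81 (Jak1 to Tyk2), -0.50 (Jak2 to Tyk2), 2.01 (Jak3 to Jak1), 1.70 (Jak3 to Jak2) and 1.2 (Jak3 to Tyk2). With 1 mouse left out these 7 differences ranged over 1.11 to 1.38, 1.16 to 1.59, -0.98 to -0.64, -0.59 to -0.43, 1.73 to 2.28, 1.53 to 1.86 and 1.08 to 1.30, and that of Jak1 to Jak2 over -0.42 to -0.19.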
